A study of Mus musculus with 6 samples.

Results

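Cell cycle and mitosis genes were followed in fluorescent hindbrain cells of mouse embryos at E10.5. The 40 genes were taken by name, and a gene entered where a probe set of the array was assigned to its symbol alone. This held for 39 genes, out of 18193 genes measured in all. Their 91 probe sets were reduced to 1 per gene, the probe set with the highest mean log2 intensity over the 6 arrays. The gene left out was Ccnb1, the cyclin B1 gene, for which no probe set was named, and it was not analysed here. Both genotypes carried an IRES-tauGFP reporter, tau fused to green fluorescent protein, at the Hoxb1 locus. The control embryos (Hoxb1-IRES-tauGFP, n = 3 arrays) made Hox-B1, the locus's own protein. In the swap embryos (n = 3 arrays) the reporter-tagged locus made a paralogous Hox protein in its place. Cells that made tauGFP were sorted from the hindbrains of whole litters, so each array pools embryos, and the labels give the tissue as rhombomere 4, a hindbrain segment. With strain, sex and the number of modified alleles not given in the sources used here, groups are described by genotype alone. The comparison asks which transcripts of these cells change when the second Hox protein stands in for Hox-B1.

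A dividing cell passes a series of switches. In G1, D-type cyclins activate Cdk4 and Cdk6, which release E2F factors from the retinoblastoma protein, and inhibitors of the Cdkn1 family hold the kinases back. E2F then drives cyclin E, the replication licensing factors Cdc6 and Cdt1, the MCM helicase and nucleotide synthesis, and geminin blocks a repeat of licensing. Cyclins A and B with Cdk1 bring the cell into mitosis, where Aurora and Polo kinases build the spindle, and Bub1, Bub1b and Mad2l1 hold back Cdc20 until every chromosome is attached. In the embryonic hindbrain, progenitors at the ventricle divide, and their daughters leave the cycle as they become neurons. The members were ordered by these roles into 8 genes of G1, 16 of the G1/S step and DNA replication, and 15 measured genes of G2 and mitosis.

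No difference between genotypes passed the test in any of the 39 measured genes, and those of replication and mitosis varied together from array to array within a genotype. In bulk RNA, fewer cells of a type and less RNA per cell cannot be told apart. The deposited intensities had been scaled to a common trimmed mean and were compared on the log2 scale. limma, which fits a linear model to each probe set and moderates its variance across all of them, called 0 of the 39 at an adjusted p under 0.05, as it called 0 of 45037 probe sets (0%). At an unadjusted p under 0.05, 0 members lay higher with the swap and 0 lower, beside 1.69% and 1.94% of all genes. No member had all 3 swap arrays above or below all 3 control arrays, against 4.30% of genes with all above and 4.55% with all below. The median log2 difference, swap minus control, was 0.039, with 27 members higher and 12 lower, and over all genes it was 0.0053, with 50.9% higher. Without control array 1 the median was 0.18 with 35 of 39 higher, and without swap array 3 it was 0.13 with 35 higher. Without control array 2, control array 3 or swap array 1, it was -0.014, -0.0055 and -0.00068, with 16, 18 and 19 higher. Both replicate 1 arrays lay together at one end of the first principal component, and without them the median was 0.11 with 30 higher. How many members lay on one side therefore changed with single arrays.

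How small a difference the arrays could bound is shown by the intervals. Intervals at the 95% level stayed inside a 2-fold change, up or down, for 34 of the 39 members, and for 68.1% of the 11167 genes at or above the median level of the probe sets (an intensity of 114), where all 39 members lay. The 5 members with wider intervals were Ccnd3, Cdkn1a, Bub1b, Aurka and Plk1. In 36 of the 39 the difference was smaller than the SD between arrays of a genotype, the other 3 being Cdkn1a, Ccnb2 and Bub1b. That SD ranged from 0.063 for Cdkn1b to 0.56 for Aurka.

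**Figure D1:**
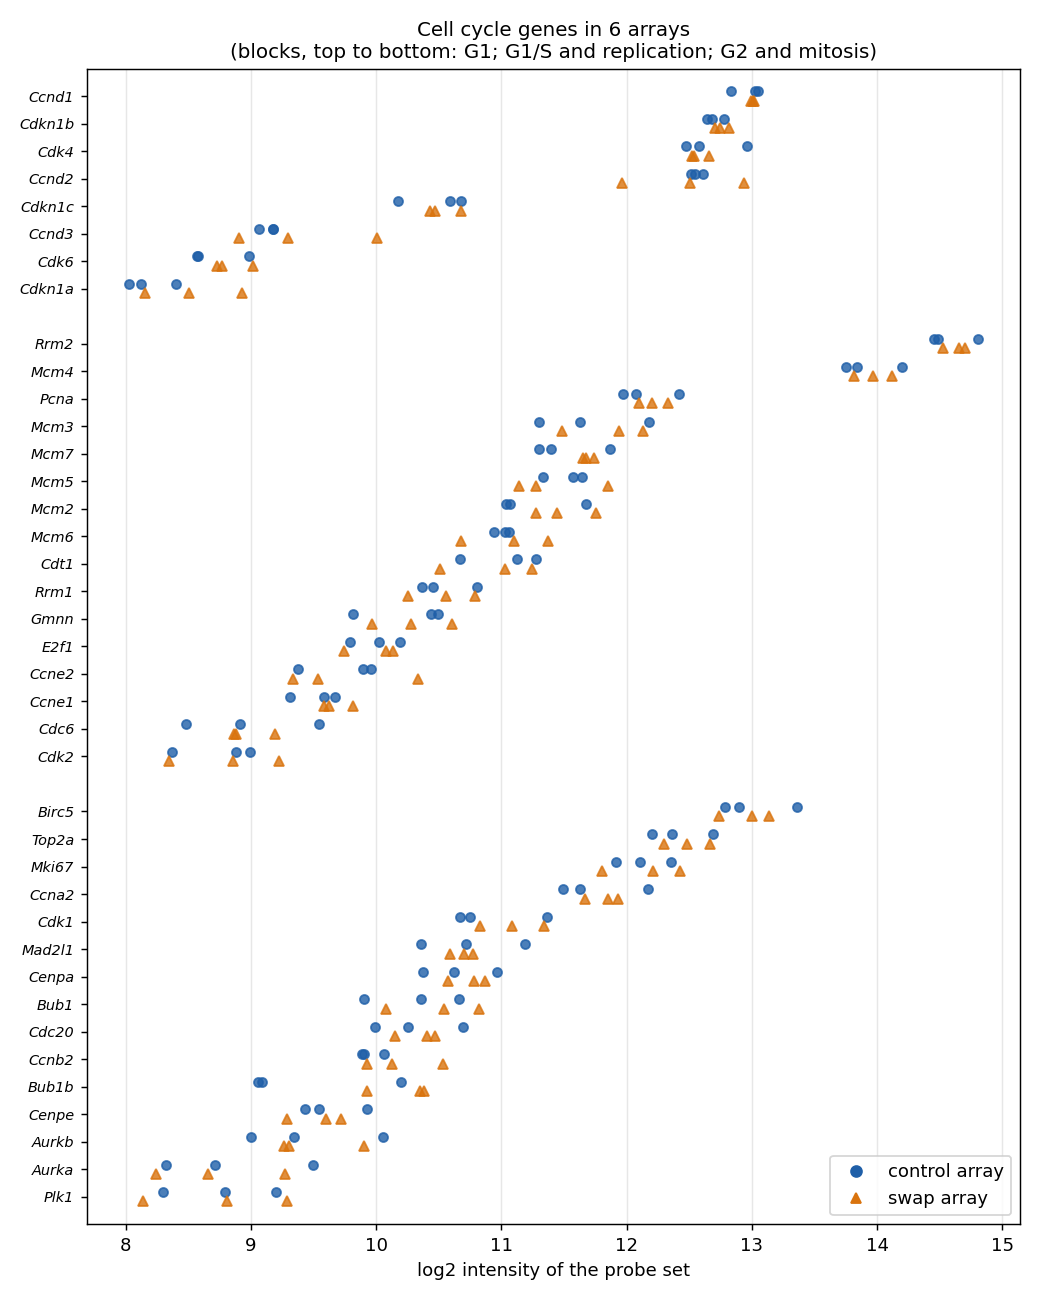
Log2 intensity (x axis) of the 39 measured cell cycle genes, 1 gene per line, in the 3 control arrays (circles) and the 3 swap arrays (triangles). No gene has the 3 symbols of one genotype all to one side of the other genotype's, and the spread within a genotype is as wide as the gap between genotypes for most genes.

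The promoters of the members were searched for short sequences known from cell cycle genes. The TTTGAA and E2F-type sequences, described below, differed most in share between the replication and the mitosis genes, and CCAAT differed less. RefSeq promoter windows (build GRCm38.p6, 250 bases before to 50 after an annotated start) were at hand for 32 of the 40 genes, in 35 windows. Motifs of 3 kinds were searched on both strands: CCAAT, the box bound by the factor NF-Y; TTTGAA, the cell cycle homology region known from late cell cycle genes; and the 4 E2F-type sequences (TTGGCGC and its variants with other middle letters, namely TTCGCGC, then also TTCCCGC, and last of all TTGCCGC), which can overlap one another on opposite strands. The stretches below are picked examples, with matches in capitals, 5′ to 3′ on the strand of the gene and ending 1 base before the start. The first 4 belong to the anaphase activator Cdc20, cyclin B2, the mitotic kinase Cdk1 and topoisomerase Top2a. Their places are chr4:118437344-118437463 (- strand), chr9:70421555-70421674 (- strand), chr10:69352913-69353032 (- strand) and chr11:99024190-99024309 (- strand).
Cdc20: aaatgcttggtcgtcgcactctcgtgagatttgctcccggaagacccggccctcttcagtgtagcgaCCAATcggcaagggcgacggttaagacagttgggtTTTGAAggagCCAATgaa
Ccnb2: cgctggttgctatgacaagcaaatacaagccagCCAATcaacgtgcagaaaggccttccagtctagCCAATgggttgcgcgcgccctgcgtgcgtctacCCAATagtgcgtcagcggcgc
Cdk1: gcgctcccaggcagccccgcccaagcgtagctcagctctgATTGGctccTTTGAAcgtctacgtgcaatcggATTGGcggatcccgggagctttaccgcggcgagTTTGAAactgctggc
Top2a: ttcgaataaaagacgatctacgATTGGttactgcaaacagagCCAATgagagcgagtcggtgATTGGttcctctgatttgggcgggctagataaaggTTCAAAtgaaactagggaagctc

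Cdk1 and Cdc20 show the CCAAT box (ATTGG when it lies on the other strand) beside TTTGAA, and Top2a shows TTTGAA read on the opposite strand as TTCAAA. In Ccnb2 the 3 CCAAT boxes lie between 2 TTTGAA matches, which fall outside the stretch shown. The next 2 stretches are Mki67, the proliferation antigen, at chr7:135716380-135716499 (- strand), and Bub1b, at chr2:118598091-118598210 (+ strand), the member with the widest gap between genotypes, whose TTTGAA lies past the start. The last 2 are Mcm6, a subunit of the replicative helicase, at chr1:128359706-128359825 (- strand), and Rrm1, the large subunit of ribonucleotide reductase, at chr7:102441575-102441694 (+ strand), which carry E2F-type sequences and no TTTGAA. In Mcm6 such sequences of both strands overlap in each of 2 runs of capitals.
Mki67: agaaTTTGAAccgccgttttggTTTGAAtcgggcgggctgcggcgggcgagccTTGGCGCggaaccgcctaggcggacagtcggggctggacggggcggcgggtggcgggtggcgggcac
Bub1b: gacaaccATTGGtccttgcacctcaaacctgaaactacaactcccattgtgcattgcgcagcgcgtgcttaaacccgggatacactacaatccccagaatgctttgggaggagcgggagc
Mcm6: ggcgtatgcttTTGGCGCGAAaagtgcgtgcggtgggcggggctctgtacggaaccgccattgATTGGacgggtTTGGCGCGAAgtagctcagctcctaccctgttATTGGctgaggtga
Rrm1: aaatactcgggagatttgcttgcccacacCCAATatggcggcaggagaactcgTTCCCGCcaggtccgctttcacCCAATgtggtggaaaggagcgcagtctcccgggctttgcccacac

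Among the 14 windows of G2 and mitosis members, Ccnb1 included, 12 held CCAAT (85.7%), 9 held TTTGAA (64.3%) and 3 held an E2F-type sequence (21.4%). Of all 32851 windows in the table, 37.4% held CCAAT, 17.9% TTTGAA and 9.57% an E2F-type sequence. The 14 windows of the replication members showed CCAAT in 10, TTTGAA in 1, that of Mcm2, and an E2F-type sequence in 10. The 7 windows of the G1 members held CCAAT in 2 and neither of the other motifs. In the mitosis members 12 of 13 TTTGAA matches read in the direction of the gene, against 53.3% over all windows and 30 of 44 (68.2%) in further mitosis genes that are not members. These further mitosis genes had CCAAT in 38 of 51 windows (74.5%), TTTGAA in 34 (66.7%) and an E2F-type sequence in 11 (21.6%). Further replication genes had CCAAT in 16 of 30 windows (53.3%), TTTGAA in 7 (23.3%) and an E2F-type sequence in 18 (60.0%). A match of letters is a description of the window, and binding was not measured here.

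**Figure D2:**
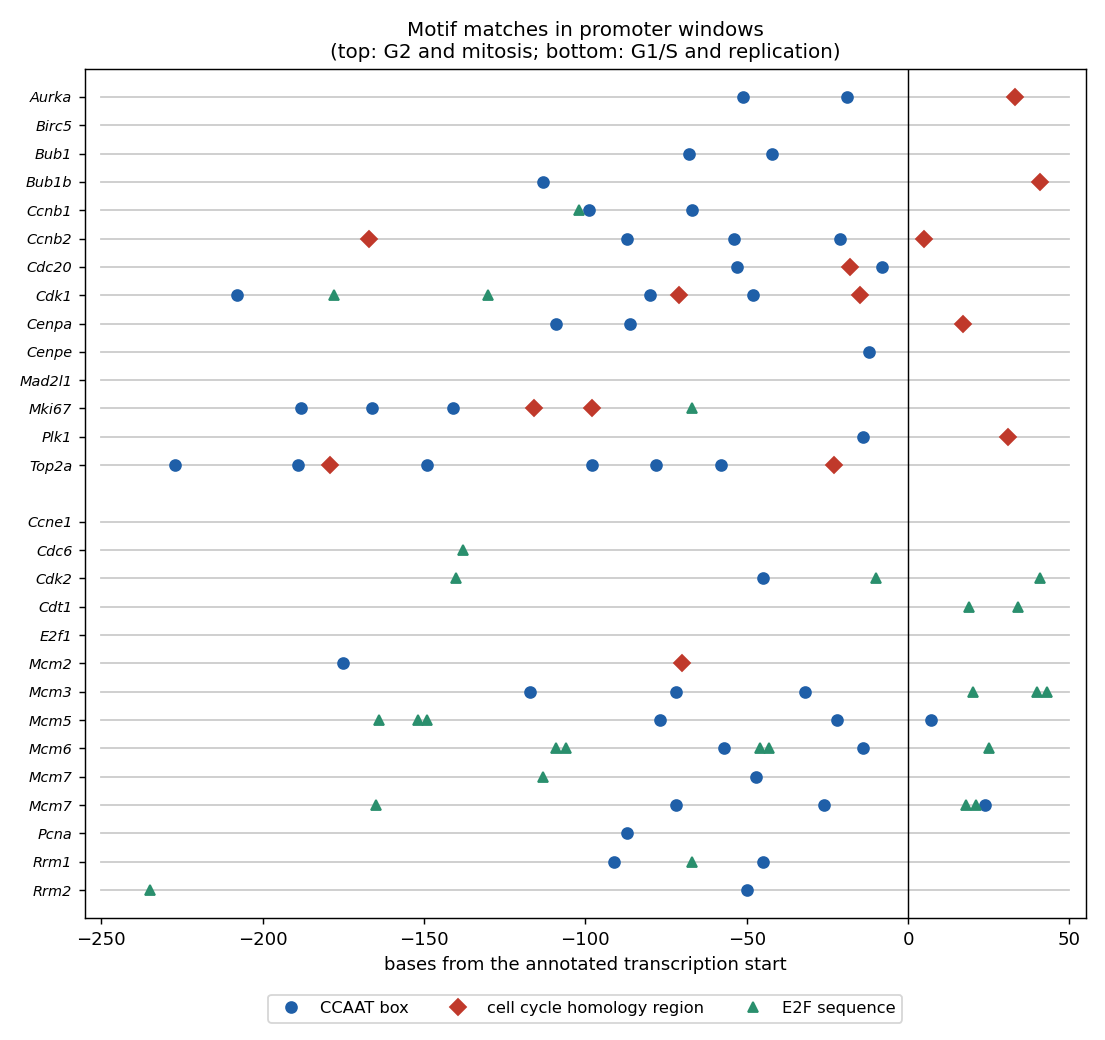
First base of each match (x axis, bases from the annotated start, window drawn as a grey line) in the promoter windows of G2 and mitosis members (top) and of G1/S and replication members (bottom), with CCAAT as circles, the TTTGAA region as diamonds and E2F-type sequences as triangles. Diamonds lie in 9 of the 14 upper windows and in 1 of the 14 lower ones, and triangles in 3 of the upper and 10 of the lower.

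In G1, 6 of 8 members lay higher and 2 lower with the swap, none past limma's test, with a median difference of 0.052. Ccnd1, the cyclin D1 gene, stood at log2 intensities of 13.05, 13.03 and 12.83 in control arrays 1, 2 and 3, against 12.99, 13.01 and 13.02 in the swap arrays taken in the same order. Values of other genes follow that order. Its 6 arrays lay close together and the groups overlapped, with a difference of 0.038 (SE 0.20, 95% interval -0.46 to 0.54). Cdkn1b, which encodes the inhibitor p27 that accumulates as cells leave the cycle, stood at 12.68, 12.64 and 12.77 in the controls against 12.74, 12.70 and 12.82 in the swap arrays. This was the tightest member of all, with a difference of 0.057 (95% interval -0.44 to 0.55). Cdk4, the partner kinase of the D cyclins, stood at 12.96, 12.58 and 12.48 in the controls against 12.52, 12.66 and 12.53 in the swap arrays. Control array 1 was the highest and the other 5 arrays lay together, and the difference was -0.10 (SE 0.23).

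Ccnd2, the cyclin D2 gene of dividing neural progenitors, stood at 12.52, 12.61 and 12.54 in the controls against 11.96, 12.94 and 12.51 in the swap arrays, so the swap arrays lay on both sides of the controls. Its 7 probe sets gave differences from -0.090 to 0.49. Ccnd3, the third D cyclin, stood at 9.17, 9.18 and 9.07 in the controls against 10.01, 9.30 and 8.91 in the swap arrays, with swap array 1 apart from the other 5, and a difference of 0.27 (SE 0.33, -0.036 without swap array 1). Cdk6, the second kinase of the D cyclins, stood at 8.58, 8.99 and 8.57 in the controls against 8.77, 9.02 and 8.73 in the swap arrays. These values overlapped and differed by 0.13 (SE 0.24). Cdkn1a, which encodes the p53-induced inhibitor p21, stood at 8.13, 8.40 and 8.03 in the controls against 8.15, 8.93 and 8.51 in the swap arrays. Its difference of 0.34 (SE 0.29) was the widest of the G1 genes, 1 control array lay within the swap range, and a second, dim probe set gave -0.59. The inhibitor gene Cdkn1c, the third of its family, ranged over the 6 arrays from 10.17 to 10.68, with a difference of 0.047 (SE 0.24).

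Among the 16 genes of the G1/S step and replication, 11 lay higher and 5 lower with the swap, again none past limma's test, and the median difference was 0.038. All 16 had an interval within 2-fold. Rrm2, the regulated subunit of ribonucleotide reductase, which makes the precursors of DNA, stood at 14.81, 14.49 and 14.46 in the controls against 14.70, 14.65 and 14.53 in the swap arrays. Mcm4, a helicase subunit, stood at 14.20, 13.84 and 13.75 in the controls against 14.12, 13.97 and 13.82 in the swap arrays. In both genes control array 1 was the highest of the 6, and the differences were 0.042 (95% interval -0.50 to 0.59) and 0.039 (95% interval -0.55 to 0.63). Pcna, the sliding clamp of the DNA polymerases, stood at 12.42, 11.97 and 12.07 in the controls against 12.21, 12.33 and 12.10 in the swap arrays, with control array 1 again highest and a difference of 0.057 (95% interval -0.52 to 0.63).

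Further helicase subunits spread in a like way. Mcm3 stood at 12.18, 11.63 and 11.30 in the controls against 12.13, 11.94 and 11.49 in the swap arrays, a difference of 0.15 (SE 0.33). Mcm7 stood at 11.87, 11.30 and 11.39 in the controls against 11.74, 11.68 and 11.65 in the swap arrays, where control array 1 lay above and control arrays 2 and 3 below all the swap arrays, and the difference was 0.17 (SE 0.24). Mcm2 stood at 11.68, 11.04 and 11.07 in the controls against 11.75, 11.45 and 11.28 in the swap arrays, with the smallest p of the replication genes (difference 0.23, SE 0.29). Without control array 1 these differences were 0.39, 0.34 and 0.44, none past the test. Ccne1, the cyclin E1 gene that opens S phase, stood at 9.67, 9.31 and 9.58 in the controls against 9.81, 9.62 and 9.58 in the swap arrays, overlapping, with a difference of 0.15 (95% interval -0.40 to 0.70).

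The remaining 9 genes of this step, Mcm5, Mcm6, Cdt1, Rrm1, Gmnn, E2f1, Ccne2, Cdc6 and Cdk2, had differences between -0.098 and 0.062. The licensing factor gene Cdc6 had a difference of 0.0012 with an SE of 0.33, and its levels ran from 8.49 in control array 2 to 9.54 in control array 1. Gmnn, the geminin gene whose protein holds Cdt1 in check, had a difference of 0.033, and Cdt1 itself one of -0.098. E2f1, the transcription factor that drives many genes of this group, differed by -0.017 (95% interval -0.61 to 0.58).

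Of the 15 measured genes of G2 and mitosis, 10 lay higher and 5 lower with the swap, with a median difference of 0.028 and none past limma's test. Birc5, the survivin gene of the chromosomal passenger complex, stood at 13.36, 12.90 and 12.79 in the controls against 13.00, 13.13 and 12.74 in the swap arrays. Top2a, which untangles sister chromatids, stood at 12.69, 12.20 and 12.36 in the controls against 12.67, 12.49 and 12.30 in the swap arrays, and Mki67, whose protein coats mitotic chromosomes, at 12.35, 12.11 and 11.92 in the controls against 12.21, 12.43 and 11.80 in the swap arrays. In these 3 genes the groups overlapped, and the differences were -0.059, 0.062 and 0.019, with 95% intervals of -0.71 to 0.59, -0.54 to 0.67 and -0.64 to 0.68. Cdk1 stood at 11.36, 10.75 and 10.67 in the controls against 11.08, 11.34 and 10.83 in the swap arrays, a difference of 0.16 (SE 0.29). Ccnb2, the cyclin B2 gene, stood at 10.06, 9.90 and 9.88 in the controls against 10.13, 10.53 and 9.93 in the swap arrays. Swap array 2 was its highest array, and the difference was 0.25 (SE 0.25).

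Bub1b, the gene of the spindle checkpoint protein BubR1, had the smallest p of the members and the widest difference. Its log2 intensities were 10.20, 9.09 and 9.06 in the controls against 10.35, 10.38 and 9.93 in the swap arrays. Control arrays 2 and 3 lay well below the rest, and control array 1 lay among the swap arrays. Between genotypes they differed by 0.77 (SE 0.39, 95% interval -0.19 to 1.73; adjusted p = 1.00 in limma). The value was 1.15 without control array 1 and 1.08 without both replicate 1 arrays, again with no call. A second probe set of Bub1b stood at 9.60, 8.76 and 8.66 in the controls against 9.63, 9.42 and 9.05 in the swap arrays, a difference of 0.36 (SE 0.35). The third stood at 6.80, 7.66 and 7.86 in the controls against 9.30, 8.79 and 8.24, where all 3 swap arrays lay above the controls, and differed by 1.34 (SE 0.42, unadjusted p = 0.020 in limma, adjusted p = 1.00). The partner kinase gene Bub1 had a difference of 0.17 (SE 0.32) on the probe set that stood for it and 1.00 (SE 0.33, unadjusted p = 0.023 in limma, adjusted p = 1.00) on a dimmer one, at 8.58, 8.37 and 8.06 in the controls against 9.22, 9.86 and 8.93 in the swap arrays. The dimmer probe sets of both genes are described because of their values. Below the median level, probe sets of other members differed by -1.42 for Top2a, -1.38 for Cdk2 and -1.01 for Cenpa. Those of Cdk6 and Cdt1 differed by 1.76 and 1.26, and none of these passed limma's test.

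The other 9 mitosis genes, Ccna2, Mad2l1, Cenpa, Bub1, Cdc20, Cenpe, Aurkb, Aurka and Plk1, had differences between -0.12 and 0.17. Ccna2, the cyclin A2 gene that acts from S phase to mitosis, differed by 0.053 (95% interval -0.61 to 0.71), and the centromeric histone gene Cenpa by 0.087 (95% interval -0.54 to 0.71). The Aurora kinase gene Aurka and the Polo kinase gene Plk1 were the loosest of the group, with differences of -0.12 (95% interval -1.17 to 0.94) and -0.020 (95% interval -1.01 to 0.97).

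**Figure D3:**
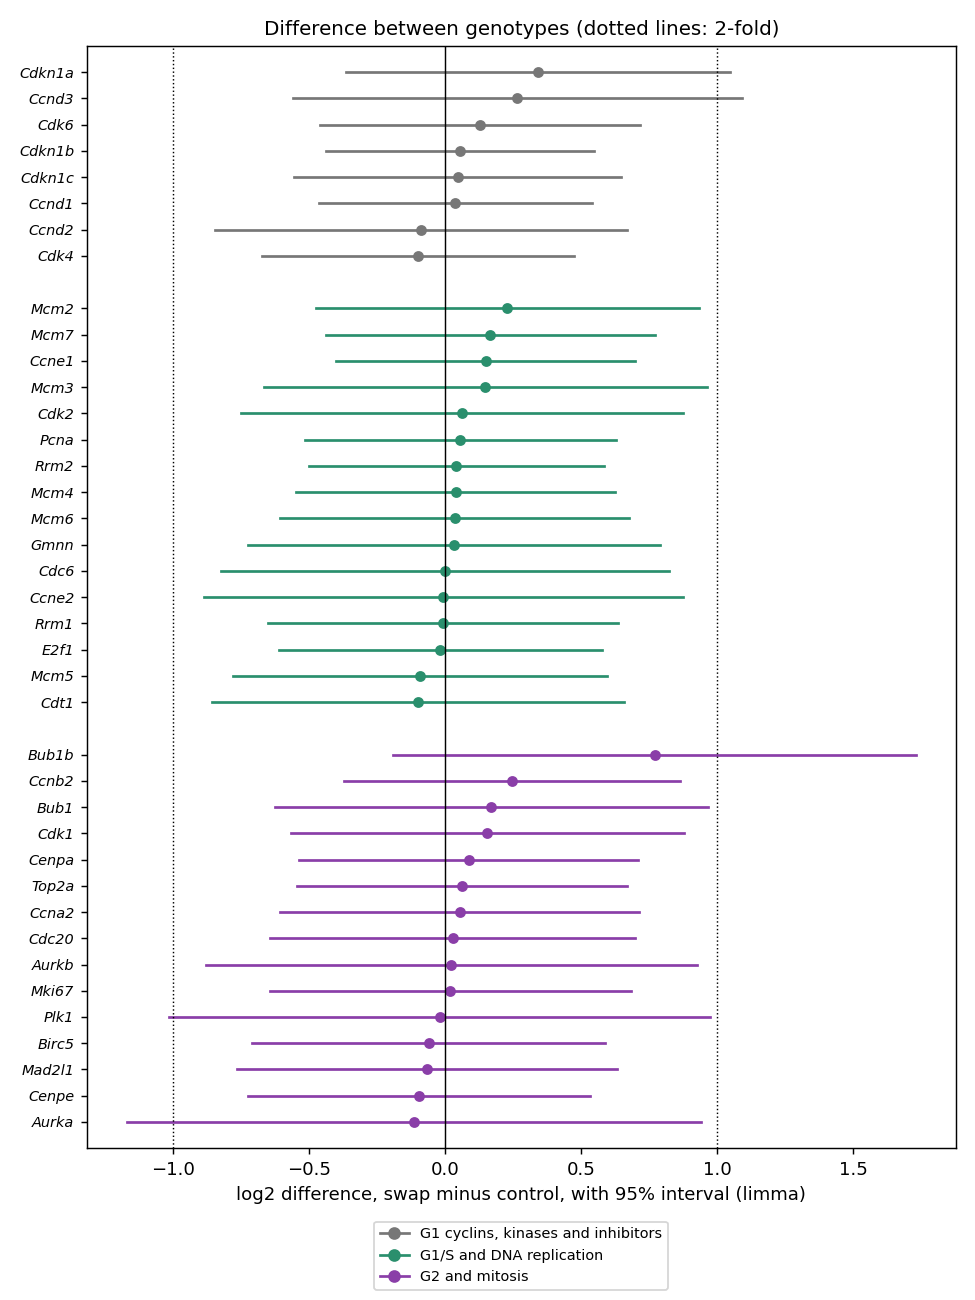
Log2 difference, swap minus control (x axis), of each member with its 95% interval from limma, by role. All 39 intervals cross 0, 34 lie within the dotted lines that mark 2-fold, and Bub1b has the widest difference, 0.77.

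Agreement between probe sets of a gene limits how firmly a single difference can be read. Of the members, 24 had more than 1 probe set at or above the median level, and in 3 of them, Ccnd2, Rrm2 and Mcm3, these differed in sign and by more than 0.5. For Rrm2 they ran from -0.56 to 0.21 and for Mcm3 from -0.24 to 0.35. In further members they kept 1 sign but also lay more than 0.5 apart. They ran from 0.36 to 1.34 for Bub1b, 0.17 to 1.00 for Bub1, 0.028 to 0.79 for Cdc20 and -0.75 to -0.0076 for Rrm1. The probe sets that stood for Cdk4, Rrm2, Mcm4, Mcm5, Mcm6 and Cdc20 carry the array maker's x suffix and those for Mcm7, Mcm2, Bub1b and Aurkb its s suffix, which mark probes that can also match other transcripts.

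Within each genotype the replication and mitosis genes moved together. Control array 1 was the highest of the 3 control arrays for 15 of 15 mitosis genes and 13 of 16 replication genes, but for 2 of 8 G1 genes, and for 37.2% of all genes at or above the median level. Swap array 3 was the lowest of the 3 swap arrays for 13 of 15, 15 of 16 and 2 of 8, against 34.6% of those genes. The median mitosis gene stood 0.37 above its own mean over the 6 arrays in control array 1, against -0.25 and -0.19 in the other controls. In swap arrays 1 to 3 it stood at 0.13, 0.14 and -0.18. The median replication gene stood at 0.23, -0.18 and -0.12 in the controls against 0.11, 0.12 and -0.23 in the swap arrays. In both groups the arrays thus split the same way, with control array 1 and swap arrays 1 and 2 high and the other 3 low. The arrays high for these genes also had the lowest median intensity over all probe sets, at 118, 118 and 122. It was 130 and 139 in control arrays 2 and 3 and 139 in swap array 3, and its part was not tested. The median G1 gene stayed between -0.15 and 0.043 in all 6, and its sign in control array 1 changed with median centring. With that centring it stood at 0.035, 0.014 and -0.27 in the controls against 0.066, 0.092 and -0.11 in the swap arrays.

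Control array 1 differed from the mean of control arrays 2 and 3 by more than swap differed from control in 33 of the 39 members (84.6%). The same held for 69.5% of genes at or above the median level. By its construction a contrast of 1 array against 2 varies more than one of 3 against 3. Control array 1 minus that mean had a median of 0.57 over the mitosis genes (range 0.17 for Ccnb2 to 1.13 for Bub1b), 0.38 over the replication genes and -0.043 over the G1 genes. Over all genes at or above the median level it was 0.0055. These counts describe arrays singled out because of their values and carry no test.

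**Figure D4:**
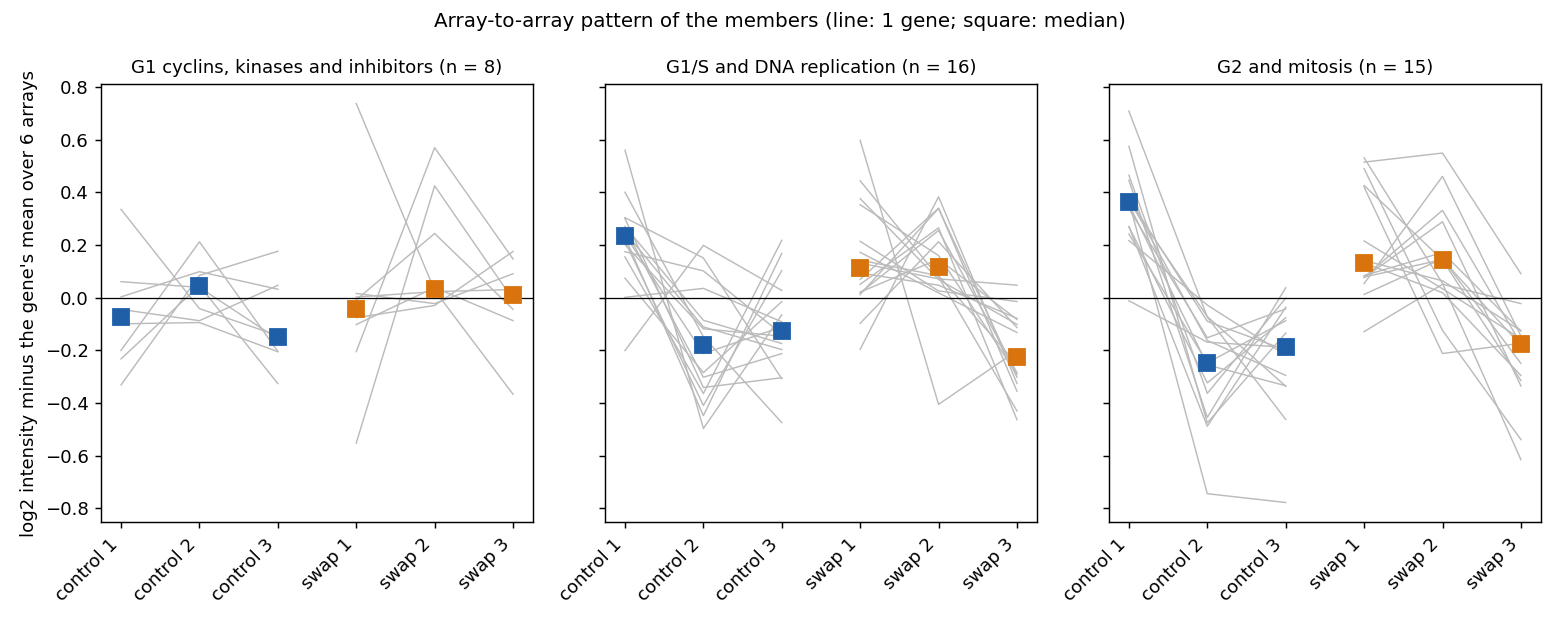
Log2 intensity of each member minus its mean over the 6 arrays (y axis), by array (x axis) and role; a grey line follows 1 gene across the 3 arrays of a genotype, which have no order, and squares are medians. The replication and mitosis medians are above 0 in control array 1 and swap arrays 1 and 2, and below 0 in the others. Those of the G1 genes lie between -0.15 (control array 3) and 0.043 (control array 2).

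Further genes of the same pathway, which are not members, were counted in the same way. Of 55 other mitosis genes, among them kinesins, condensins and kinetochore proteins, 54 were measured. With the swap 36 lay higher and 18 lower, with a median difference of 0.063 and 0 past limma's test. Control array 1 was the highest control for 46 of the 54, and swap array 3 the lowest swap array for 34. The smallest p belonged to Pttg1, the gene of securin, which holds back the separation of sister chromatids until anaphase. It stood at 11.77, 11.86 and 12.01 in the controls against 11.44, 11.29 and 11.58 in the swap arrays. All its swap arrays lay below the controls, with a gap of -0.44 (SE 0.21; adjusted p in limma, 1.00), and it was the 1 gene of the list whose groups did not overlap. Of all genes, 4.55% had all swap arrays below the controls and 4.30% all above, and 1 of 54 is under these shares. The second smallest p was that of Mybl2, the B-Myb factor, with a difference of 0.93 (SE 0.60) at a level near the median of the probe sets.

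Of 30 other replication genes 27 were measured, 18 higher and 9 lower, with a median of 0.071 and 0 past the test. Control array 1 was the highest control for 19 of them, and swap array 3 the lowest swap array for 16. Their smallest p belonged to Tyms, thymidylate synthase, at 1.25 (SE 0.81, with control array 1 at 4.44 and the other 5 arrays between 7.12 and 7.87), and Cdc7, the kinase that fires origins, at 0.28 (SE 0.25). Of 33 further regulators, such as retinoblastoma and E2F family genes, 32 were measured, 18 higher and 14 lower, with a median of 0.053 and 0 past the test, and control array 1 was the highest control for 15 and swap array 3 the lowest swap array for 14. The smallest p of this list belonged to Cdkn2c, an inhibitor of Cdk4 and Cdk6, at 0.84 (SE 0.43, at a low level), and E2f8, a repressor of the E2F family, at 0.48 (SE 0.27). Over the 3 lists 0 genes had an unadjusted p under 0.05.

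The sorted cells carried markers of dividing progenitors and of neurons side by side, and markers of other cell types differed between arrays of one genotype. All 10 progenitor markers, Sox2, Hes5 and Vim among them, and all 9 measured neuron markers, Tubb3 and Isl1 among them, lay at or above the median level. The log2 of the summed intensity of the mitosis members was 15.39, 14.87 and 14.87 in the controls against 15.19, 15.22 and 14.86 in the swap arrays. The progenitor markers summed to 15.72, 15.69 and 15.68 in the controls against 15.61, 15.68 and 15.68 in the swap arrays, a sum in which the brightest markers weigh most. Single progenitor markers spread over the 6 arrays by 0.20 to 0.80 (median 0.47), and mitosis members by 0.49 to 1.33 (median 0.69). The median spread of all genes at or above the median level was 0.72, so that of the mitosis members was no wider than usual. The neuron markers stood at 15.76, 16.08 and 16.00 in the controls against 16.21, 15.94 and 16.11 in the swap arrays, with control array 1 lowest of the 6 for 8 of 9. By genotype, 9 of the 9 neuron markers lay higher with the swap (median 0.13) and 7 of the 10 progenitor markers lower (median -0.054), none past the test. Of all genes at or above the median level, 52.1% lay higher. The count for neuron markers depended on control array 1. In Dcx, Nefl, Stmn2 and Elavl3 the mean of control arrays 2 and 3 lay above the swap mean, and in the other neuron markers below it. The array that was highest for the mitosis genes was thus the lowest for the neuron markers. Among the swap arrays, both arrays high for the mitosis genes lay at opposite ends of the neuron sum, swap array 2 lowest (for 5 of 9 markers) and swap array 1 highest (for 5 of 9).

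Mesenchyme markers, 8 of 8 measured and 7 at or above the median level, summed to 11.30, 13.10 and 12.61 in the controls against 11.70, 12.58 and 12.22 in the swap arrays. Macrophage markers, 9 of 9 measured and 5 at or above that level, summed to 9.11, 14.08 and 10.82 in the controls against 11.30, 12.22 and 12.15 in the swap arrays. Both lists were lowest in control array 1 and highest in control array 2. Swap array 2, high for the mitosis genes, was the highest swap array for both lists, and swap array 1, also high for the mitosis genes, was the lowest. Erythroid markers, 7 of 8 measured and 3 at or above the median level, ranged over the arrays from 13.91 to 15.02, and the 7 endothelial markers, of which 1 reached the median level, from 8.85 to 9.65. By genotype, 7 of 9 macrophage and 7 of 7 endothelial markers lay higher with the swap (medians 0.44 and 0.59), beside 50.9% of all genes. Lower were 6 of 8 mesenchyme and 7 of 7 erythroid markers (medians -0.19 and -0.28), and no marker passed the test. The part of these cells in the values of the cycle genes was not tested. For Gapdh, the gap in log2 between its 3′ and 5′ control probe sets, a measure of RNA quality, was between 1.23 and 1.41 in 5 arrays and 1.93 in swap array 1. For Actb the gap was wider, between 2.41 and 2.67 in 5 arrays and 2.92 in swap array 1. The part of RNA quality was likewise not tested.

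**Figure D5:**
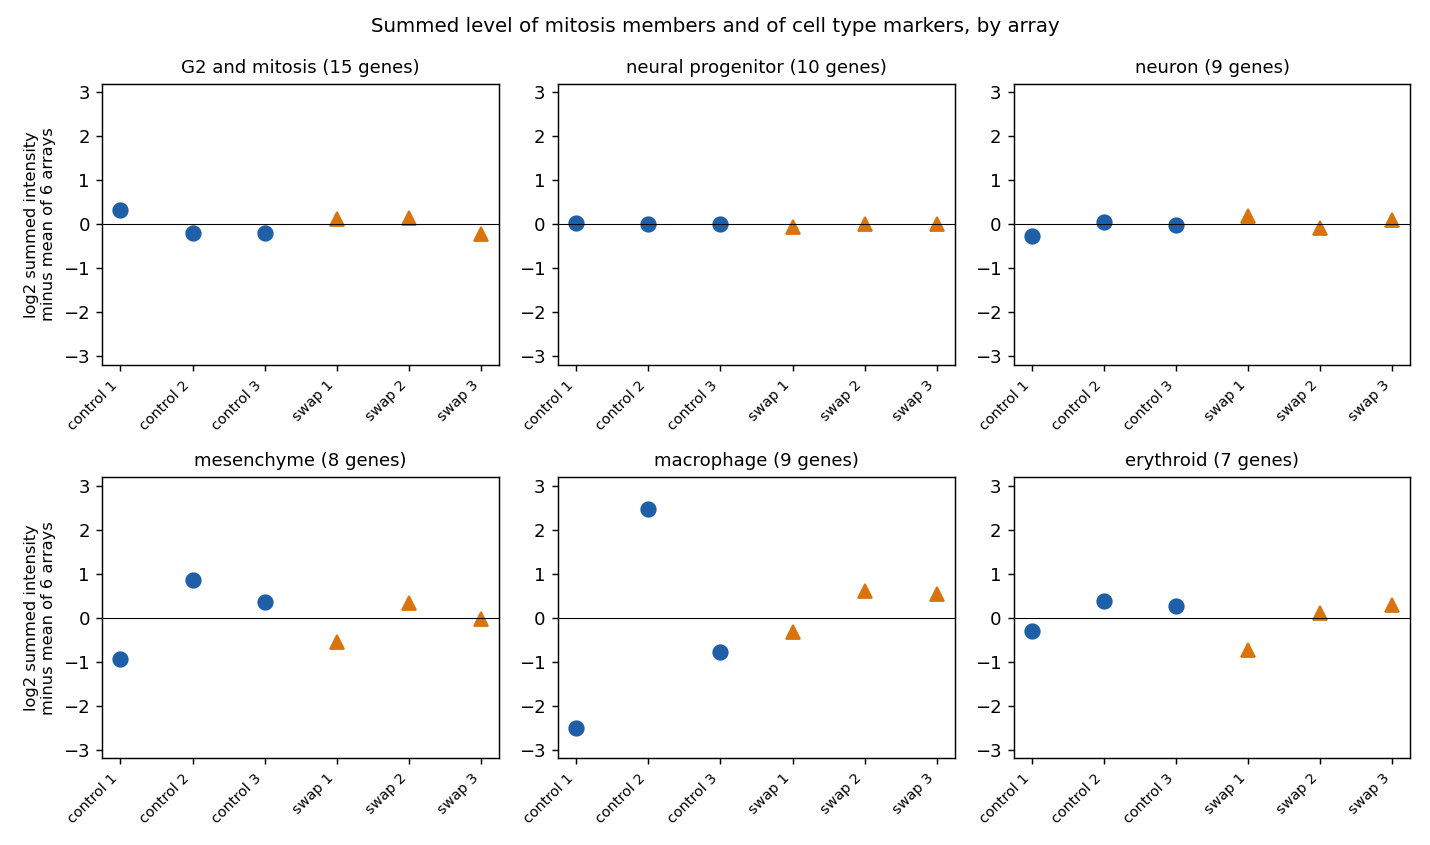
Log2 summed intensity of the 15 mitosis members and of 5 marker lists, each minus its mean over the 6 arrays (y axis), in the control arrays (circles) and swap arrays (triangles). Macrophage and mesenchyme markers spread over a far wider range than the mitosis members, and the progenitor sum stays near 0.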

How the data were processed

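RNA of sorted tauGFP-positive cells was measured on 6 single-channel Affymetrix arrays, 3 per genotype, per the labels. Replicates are biological, per the series design, and p-values measure the spread between pooled litters. The authors deposited 1 linear intensity per probe set and array. They used the affy package, per the submitters' processing notes, with version, background and summary methods not given in the sources used here. Every array has a 2% trimmed mean of 500. No hybridization date was used here, so no batch was tested. The number of arrays limits the precision. The second Hox protein is not reported here by name.

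All intensities were above 0, and log2 was taken with no offset. After 64 control probe sets were removed, 45037 were fitted with limma 3.58.1 (lmFit, eBayes, two-sided) in R 4.3.3, with Benjamini-Hochberg adjustment over all and a threshold of 0.05. Symbols are those of the platform annotation: 34945 probe sets had 1, 932 several and 9160 none. Genes described in full were, per role, the 3 highest in mean, the 3 with the smallest p, and those whose probe sets disagreed. Pathway genes named were the 2 with the smallest p per list. Members and lists were chosen with earlier results of these data known. The fit was tested on simulated data. Alternatives changed the block, filter, normalization, offset (64), variance prior, array weights, probe set or arrays kept. A planned comparison of protein sequences was not run.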

Additional observations from a re-analysis of the deposited data

How the results depend on the processing

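In limma, 0 members were called under all 16 alternatives, and 0 of all features. The smallest adjusted p of a member was 0.76, and at an unadjusted p under 0.05 there was at most 1 member per alternative, Bub1b or, with the second probe set, Bub1. With the replicate number as a block the count was 0 and the median difference 0.039. The labels do not say that a replicate number marks a shared litter, batch or day, so the numbers were not taken to pair the arrays. Deviations of same-numbered arrays correlated at 0.23, 0.031 and 0.22, and those of differently numbered arrays at -0.29 to 0.12. The values of 0.23 and 0.22 were thus the highest of all pairs, though not every array correlated best with its own number. The median difference of the members ranged from -0.014 to 0.18 with 1 array left out, was 0.11 without both replicate 1 arrays, and lay between -0.0070 and 0.073 under the other alternatives. Of 613 values of single members 109 turned sign, none of a difference past the test and none with a size above 0.34. 22 moved by at least the SD between arrays, all with other probe sets standing for the gene.

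For the array pattern, alternatives were chosen after seeing the data. In control array 1 the median deviation of the mitosis genes was 0.37 and lay between 0.35 and 0.47. That of the replication genes was 0.23, and 0.49 with the second probe set. That of the G1 genes was -0.072 and changed sign, at 0.0061 with the mean of all probe sets, 0.035 with median centring and 0.089 with the second probe set. The cause was not tested.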
